A study of Mus musculus with 8 samples.

Results

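The 10 genes described here are Pparg, Cebpa, Cebpb, Cebpd, Zfp423 and Ppargc1a, which regulate the formation of fat cells, and Fabp4, Lpl, Cd36 and Plin2, which take up, carry or store fatty acids in them. They were chosen by symbol from the 24346 genes listed in 8 RNA-seq libraries of mouse adipose-derived stem cells (ADSCs), and all 10 were above 0 in at least 1 library, as were 18862 genes in all. The cells came from the gonadal fat of 12-week-old male wild-type BALB/c mice and were kept as primary cultures, either as conventional 2D cultures (mice 2, 3, 4 and 5) or in 3D as organoids in Matrigel (mice 1, 4, 5 and 7). Both groups are labelled wild type, each library stands for 1 culture of 1 mouse, and mice 4 and 5 gave a library in both. The matrix came with the culture type, and the media of the sequenced cultures are not given in the sources used here, so geometry, matrix and medium cannot be told apart. None of these cultures is labelled as induced to form adipocytes.

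In the formation of fat cells, C/EBPβ and C/EBPδ, encoded by Cebpb and Cebpd, are early transcription factors that switch on Pparg and Cebpa. PPARγ, the nuclear receptor encoded by Pparg, and C/EBPα then maintain each other and activate genes of lipid uptake and storage, among them Fabp4, Lpl, Cd36 and Plin2. Zfp423 marks committed preadipocytes, and Ppargc1a encodes PGC-1α, a coactivator that drives mitochondrial gene programs and is abundant in brown fat.

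The values are FPKM (fragments scaled by transcript length and library depth), quantile normalized here over the 18862 genes, and are comparable between genes because they are given per length. Fold changes are differences between 3D and 2D on the scale of log2(normalized FPKM + 1), which understates the change of low genes, from limma's moderated test with p-values adjusted by the Benjamini-Hochberg method over all 18862 genes. The estimated depth was between 14.5 M and 17.4 M fragments per library. The 3D library of mouse 1 stood apart in that short genes, under 300 nt, made up 63.2% of its deposited FPKM, compared with 19.5% to 40.6% elsewhere, and 2 of the 10 genes rose and 5 fell as well without such genes. The labelled cell type was checked against 8 stromal markers, among them Pdgfrb, Thy1, Dcn, Col1a1 and Col1a2. Their summed level was between 1540 and 3384 normalized FPKM in the 2D libraries and between 0.0465 and 0.175 in the 3D libraries, with 7 of the 8 lower in 3D by the test, and Pdgfrb, Dcn and Lum listed at 0 in every 3D library. The 8 epithelial markers were Epcam, Cdh1, Cldn3, Cldn4, Krt7, Krt8, Krt18 and Krt19. They summed to between 31.6 and 694 normalized FPKM in 2D and between 2390 and 2908 in 3D, with 7 of the 8 higher. The defining stromal transcripts of the labelled cell type were thus at or near 0 in the 3D libraries. In bulk RNA, fewer cells of a type and less RNA per cell cannot be told apart.

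The 2D libraries were of unlike kinds. Of the 5 mesothelial markers (genes of the lining of the body cavity), 4 were listed, and Msln, Upk3b, Lrrn4 and Wt1 together reached, in 2D, normalized FPKM sums of 511 (mouse 3) and 1358 (mouse 4). They stood at 0.543 and 0.352 in the 2D libraries of mice 2 and 5, and between 1.57 and 33.7 in the 3D libraries. The epithelial sum in 2D was highest in the same libraries, at 176 (mouse 3) and 694 (mouse 4) against 31.8 and 31.6. Nearly all of it came from keratins, with Krt7, Krt8, Krt18 and Krt19 at 67.3, 261, 256 and 109 in mouse 4. Epcam, Cdh1, Cldn3 and Cldn4 were each at most 0.716 in any 2D library. Results that rest on these libraries are given below with and without them.

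Among the 10 genes, 5 fell and 2 rose in 3D with an adjusted p below 0.05, and 3 did not pass. Of all genes tested, 41.5% passed, 21.2% higher and 20.3% lower in 3D, so that passing the test is common in this comparison. Pparg, Fabp4, Lpl, Plin2 and Zfp423 fell, and Cebpa and Ppargc1a rose. The libraries of the culture types did not overlap for these 7 genes, nor for 42.5% of all genes. The block fit, with a term for each mouse, rests on mice 4 and 5 alone and leaves 1 residual degree of freedom. In it limma called 0 of the 10 genes and 0% of all genes at the adjusted threshold, while unadjusted p-values were below 0.05 for 6 of the 10 genes and for 27.7% of all genes. Without the 2D libraries of mice 3 and 4, an alternative chosen after seeing the data, 5 fell and 4 rose, because Cebpb and Cebpd then passed as well. The libraries left out had the highest 2D values of both genes, so their passing follows from the choice and adds no evidence. In that fit 19.3% of all genes rose and 22.8% fell.

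**Figure D1:**
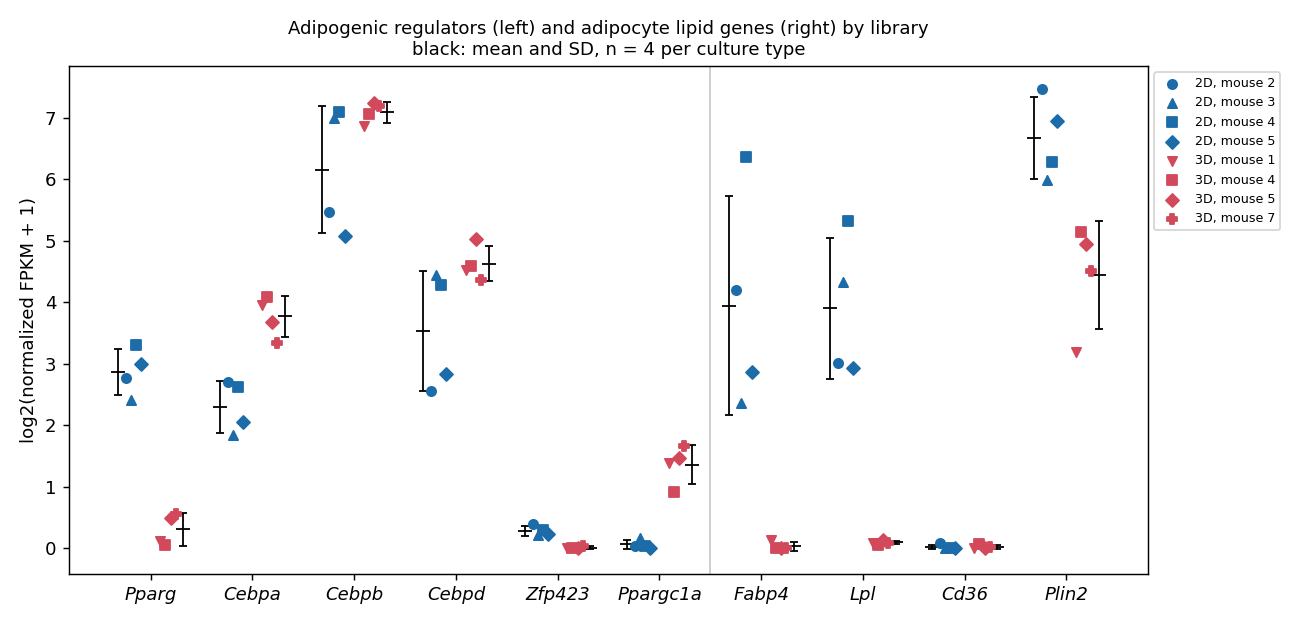
Level of each of the 10 genes in each library as log2(normalized FPKM + 1), with blue for 2D and red for 3D, 1 symbol per mouse, and black marks for the mean and SD of 4 libraries on this log scale. The 2D points of Pparg, Fabp4, Lpl and Plin2 all lie above the 3D points, those of Cebpa and Ppargc1a all lie below, and those of Cebpb and Cebpd spread over the range of the 3D points and under it.

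Pparg (chr6:115360951-115490399, plus strand, GENCODE M21 on GRCm38, the assembly also called mm10) had normalized FPKM values of 5.79, 4.33, 8.86 and 7.02 in 2D (mice 2, 3, 4 and 5). In the 3D libraries of mice 1, 4, 5 and 7 it was at 0.0829, 0.0364, 0.413 and 0.479. The lowest 2D library thus lay well above the highest 3D library, and the 3D values corresponded to between about 1.10 and 13.1 fragments against at least 122 in 2D. The mean was 25.7 times as high in 2D as in 3D. The change was -2.56 on the log2 scale (standard error, SE, 0.23, adjusted p 1.0e-04 by limma). In mouse 4 the difference was -3.25 and in mouse 5 it was -2.50. Under the mouse block it was -2.88 (adjusted p 0.118 by limma).

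Cebpa (chr7:35119293-35121928, plus strand) changed in the opposite direction. It was at 5.48, 2.59, 5.16 and 3.15 normalized FPKM in 2D (mice 2, 3, 4 and 5) and at 14.6, 16.0, 11.9 and 9.16 in 3D (mice 1, 4, 5 and 7). The groups did not overlap, and the mean was 3.15 times as high in 3D. The fitted log2 difference was 1.47 (SE 0.25, adjusted p 0.00263 by limma), with 1.47 in mouse 4 and 1.63 in mouse 5. Under the block it was 1.55 (adjusted p 0.119 by limma), and with only mice 4 and 5 the adjusted p was 0.0501. Cebpa and Pparg, which maintain each other in adipocytes, stood at 4.10 ± 1.44 and 6.50 ± 1.92 normalized FPKM in 2D and at 12.9 ± 3.03 and 0.253 ± 0.226 in 3D (SD, n = 4).

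Ppargc1a (chr5:51454250-51567726, minus strand) was the other gene that rose. Its 4 2D libraries held between 0 and about 5.38 fragments, at 0.0323, 0.128, 0.0311 and 0 normalized FPKM. Its 3D libraries stood at 1.62, 0.893, 1.76 and 2.17, with no overlap. This gave a log2 fold change of 1.29 (SE 0.15, adjusted p 4.1e-04 by limma). The difference was 0.88 in mouse 4 and 1.47 in mouse 5, and the block gave an adjusted p of 0.151 from limma. Ppargc1a in 3D remained a low transcript, under Cebpa in every library.

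Zfp423 (chr8:87661810-87959595, minus strand), a zinc finger factor that acts upstream of Pparg, was low throughout. It was at 0.312, 0.159, 0.236 and 0.171 normalized FPKM in 2D, from about 7.82 to 19.2 fragments per library. In 3D all 4 libraries were under 3 fragments, with at most 0.0268 normalized FPKM in mouse 7 and 0 in mouse 5. Against the highest level that 3 fragments give, the 2D mean of the deposited values makes it at least 3.66-fold lower in 3D. The log2 fold change, which such low values keep small, was -0.27 (SE 0.04, adjusted p 0.00162 by limma), and the block gave an adjusted p of 0.121.

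Cebpb (chr2:167688915-167690418, plus strand) was the most abundant of the 6 regulators in every library. In 2D, mice 2 and 5 stood at 43.0 and 32.7 normalized FPKM and mice 3 and 4 at 126 and 135. The 3D libraries of mice 1, 4, 5 and 7 stood at 116, 132, 150 and 145. After normalization the 2D libraries of mice 3 and 4 therefore lay within the 3D range, and those of mice 2 and 5 below it. As deposited, the 2D libraries of mice 3 and 4, at 141 and 155 FPKM, lay above all 3D libraries, which were between 93.6 and 118. Over all libraries the log2 fold change came to 0.93 (SE 0.47, adjusted p 0.151 by limma), with a 95% interval from -0.15 to 2.02. On the values as deposited the fold change was 0.42. Without the 2D libraries of mice 3 and 4 it was 1.79 (SE 0.16, adjusted p 5.9e-04 by limma). Those libraries had the highest 2D values of Cebpb, so leaving them out raises the change by construction and is no separate evidence of a rise. The difference was -0.04 in mouse 4 and 2.17 in mouse 5.

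Cebpd (chr16:15887286-15891031, plus strand) showed a like split of the 2D libraries. In 2D, its normalized FPKM was 4.91 and 6.17 in mice 2 and 5 and 20.8 and 18.5 in mice 3 and 4, while mice 1, 4, 5 and 7 in 3D gave 22.0, 23.2, 31.7 and 19.5. After normalization the 2D library of mouse 3 overlapped the 3D libraries, and that of mouse 4 lay just under them. As deposited, the 2D library of mouse 4, at 18.8 FPKM, lay just above the 3D library of mouse 7, at 18.6. Over all libraries the difference came to 1.09 on the log2 scale (SE 0.45, adjusted p 0.0907 by limma), with a 95% interval from 0.04 to 2.14. Without the 2D library of mouse 3 the adjusted p was 0.0378, and without those of mice 3 and 4 the change was 1.88 (SE 0.20, adjusted p 0.00128 by limma). These libraries had the highest 2D values of Cebpd, so both omissions raise the change by construction and are no separate evidence of a rise. In mouse 4 the difference was 0.31 and in mouse 5 it was 2.19. The 2D libraries with high Cebpb and Cebpd were those that held the mesothelial markers, and the part of these markers in the result was not tested.

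Cebpb and Cebpd each overlap a gene on the other strand, Tmem189 and Spidr. Pparg and Cebpa overlap Gm44079 and Gm45091 on the other strand. Ppargc1a overlaps Gm42613 on the other strand and Gm42614, Gm42615 and Gm43605 on its own. The Gm genes are not among the listed symbols and have no values here. The library kit keeps the strand, but whether the counting used it is not given in the sources used here. Tmem189 was between 22.2 and 42.4 normalized FPKM in the 8 libraries and Spidr between 6.27 and 11.9. In the 2D libraries of mice 2 and 5, Tmem189 was at 24.5 and 23.6 and Spidr at 6.52 and 8.28. The part of overlapping genes in the values of the 10 genes was not tested.

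**Figure D2:**
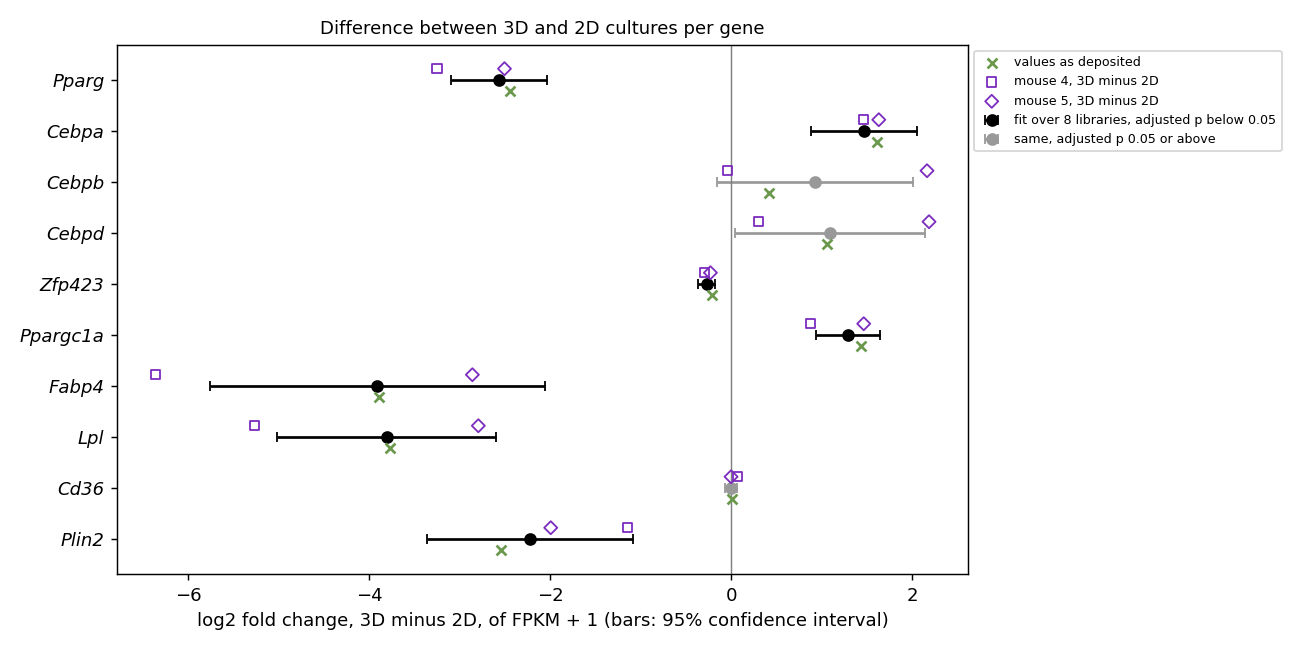
Fold change between 3D and 2D for each of the 10 genes on the log2(FPKM + 1) scale. Circles and bars give the fit over 8 libraries with its 95% confidence interval (black with an adjusted p below 0.05, grey otherwise), crosses the same fit on the values as deposited, and open symbols the difference within mouse 4 and within mouse 5. For Cebpb the mice stand at -0.04 and 2.17. For the 7 genes that passed both mice lie on the same side of 0, which follows from the lack of overlap and adds no evidence to it.

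RefSeq promoter sequences on GRCm38.p6 were at hand for 7 of the 10 genes, in 10 windows from 250 bases before to 50 bases after a start site, because Pparg has 3 and Zfp423 has 2. Cebpd, Fabp4 and Lpl had no entry. The 4 sequences below are the 250 bases before the start, written 5′ to 3′ along the gene, for the genes whose changes the results turn on: Pparg and Plin2, which fell, and Cebpa and Ppargc1a, which rose. For Pparg the most downstream start is shown. The files give 1 value per gene over all its starts. Capitals mark the motifs searched on both strands, which were TTGCNNAA (a core bound by C/EBP factors), AGGNCA repeated with 1 base between (bound by PPAR with RXR), TGACGTCA (a cAMP response element), TATAAA and CCAAT.

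Pparg, chr6:115421816-115422065, plus strand: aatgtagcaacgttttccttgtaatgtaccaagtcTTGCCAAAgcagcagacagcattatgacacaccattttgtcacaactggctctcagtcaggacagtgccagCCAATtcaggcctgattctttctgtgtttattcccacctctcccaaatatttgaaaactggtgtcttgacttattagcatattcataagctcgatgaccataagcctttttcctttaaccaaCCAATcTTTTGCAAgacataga

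Plin2, chr4:86670060-86670309, minus strand: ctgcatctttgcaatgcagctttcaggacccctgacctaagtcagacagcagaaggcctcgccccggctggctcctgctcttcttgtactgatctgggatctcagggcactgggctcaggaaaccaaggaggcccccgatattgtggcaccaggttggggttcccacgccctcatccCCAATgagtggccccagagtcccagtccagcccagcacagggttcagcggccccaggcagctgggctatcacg

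Cebpa, chr7:35119043-35119292, plus strand: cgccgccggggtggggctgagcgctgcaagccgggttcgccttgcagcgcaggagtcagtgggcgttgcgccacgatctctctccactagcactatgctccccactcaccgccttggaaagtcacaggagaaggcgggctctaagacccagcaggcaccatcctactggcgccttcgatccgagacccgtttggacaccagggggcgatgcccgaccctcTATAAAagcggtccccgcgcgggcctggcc

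Ppargc1a, chr5:51567726-51567975, minus strand: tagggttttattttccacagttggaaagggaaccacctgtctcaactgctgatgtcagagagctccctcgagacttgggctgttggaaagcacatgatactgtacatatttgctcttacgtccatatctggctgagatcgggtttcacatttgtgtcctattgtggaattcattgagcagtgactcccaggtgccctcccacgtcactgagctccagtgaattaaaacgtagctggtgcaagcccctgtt

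The C/EBP core began 16 and 215 bases before this start of Pparg, and CCAAT began 22 and 144 bases before it. The core occurred in 2 of the 10 windows, at this start of Pparg and at 1 start of Zfp423, and in 10.8% of all 32851 windows of this length. The promoter of Cebpa held TATAAA 30 bases before its start, and that of Plin2 held CCAAT 73 bases before. CCAAT was found in 4 of the 10 windows against 37.4% of all windows, and TATAAA in 3 against 13.6%. The PPAR repeat and the cAMP response element were in 0 of the 10 windows, against 0.381% and 1.79% of all windows. These letters describe the windows and say nothing of binding in these cells.

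Fabp4 and Lpl showed the largest falls of the 10 genes on the log2 scale. Fabp4 (chr3:10204088-10208576, minus strand) encodes the fatty acid binding protein of adipocytes, which also occurs in macrophages and capillary endothelium. Its 2D values were 17.3, 4.16, 81.1 and 6.26 normalized FPKM (mice 2, 3, 4 and 5). In 3D it was at 0.104 in mouse 1, about 2.06 fragments, and at 0 in mice 4, 5 and 7. The groups did not overlap, although the 2D libraries ranged widely. Against the floor of 3 fragments, the mean deposited value makes Fabp4 at least 127-fold lower in 3D, a bound of 39.7-fold when the 2D library of mouse 4 is left out. On the log2 scale the change came to -3.91 (SE 0.80, adjusted p 0.00585 by limma). The difference was -6.36 in mouse 4 and -2.86 in mouse 5, and the adjusted p was 0.0957 with these mice alone and 0.196 under the block.

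Lpl (chr8:68880491-68907448, plus strand) encodes lipoprotein lipase, which releases fatty acids from circulating lipoproteins. It was at 7.10, 19.1, 39.2 and 6.62 normalized FPKM in 2D, highest in mice 3 and 4. In 3D it was at 0.0656, 0.0435, 0.0995 and 0.0665, which is between about 3.08 and 6.11 fragments per library. The groups did not overlap, and the 2D mean was 262 times the 3D mean, or 159 times when the 2D library of mouse 4 is left out. For Lpl the log2 fold change stood at -3.81 (SE 0.52, adjusted p 8.6e-04 by limma) and -2.90 (adjusted p = 1.4e-05) without the 2D libraries of mice 3 and 4. Within mice 4 and 5 it was -5.27 and -2.79, with an adjusted p of 0.0633 for these mice alone and 0.168 under the block.

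Plin2 (chr4:86648386-86670060, minus strand) encodes the perilipin that coats lipid droplets in many cell types, not only in fat cells. It was the most abundant of the 4 lipid genes in 7 libraries, the exception being the 2D library of mouse 4, where Fabp4 stood slightly higher. Mice 2, 3, 4 and 5 gave 176, 62.3, 76.9 and 122 normalized FPKM in 2D, against 8.15, 34.3, 29.8 and 21.8 in 3D (mice 1, 4, 5 and 7). The 2D libraries of mice 2 and 5 were highest, which is the reverse of their order for Cebpb, Cebpd and Lpl. The 2D mean was 4.65 times the 3D mean. The fitted difference on the log2 scale was -2.22 (SE 0.49, adjusted p 0.0083 by limma), with -1.14 in mouse 4 and -1.99 in mouse 5. The block gave an adjusted p of 0.155.

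Cd36 (chr5:17781690-17888801, minus strand), a fatty acid translocase of adipocytes, macrophages and endothelium, was not detectable at this depth in either culture type. No library held more than about 2.43 fragments, and the highest value was 0.0580 normalized FPKM (mouse 2 in 2D), where 3 fragments correspond to up to 0.0769 FPKM. Its log2 fold change was 0.00 (SE 0.03, adjusted p 0.942 by limma), and no fold is given.

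**Figure D3:**
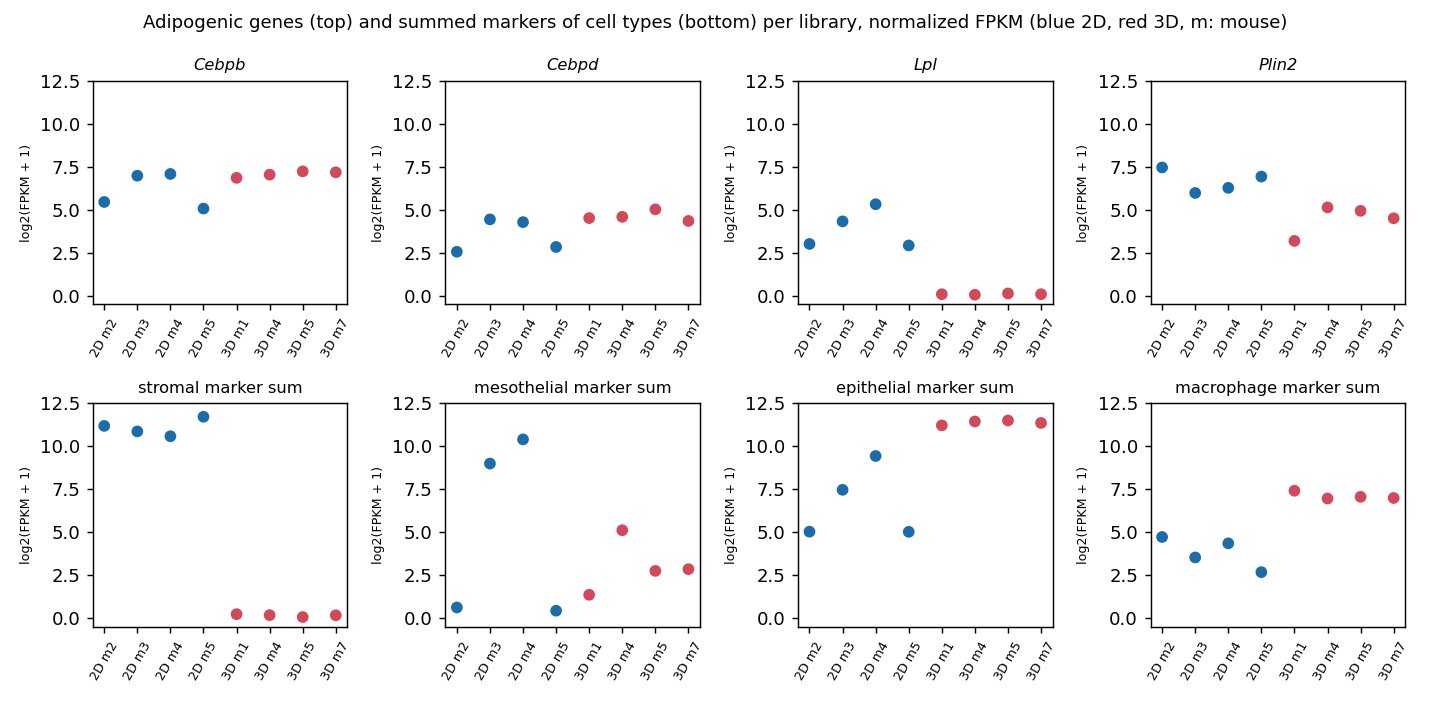
Top row, Cebpb, Cebpd, Lpl and Plin2 per library, and bottom row, the summed markers of 4 cell types, all as log2(normalized FPKM + 1), with blue for 2D, red for 3D and m for mouse. In 2D, mice 3 and 4 stand highest for Cebpb, Cebpd and Lpl and lowest for Plin2, and their mesothelial sums are 511 and 1358 against 0.543 and 0.352 in mice 2 and 5.

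Fabp4, Lpl, Cd36 and Pparg are also transcribed in macrophages and endothelial cells, so the markers of both were examined. The 7 endothelial markers summed to between 1.07 and 6.82 normalized FPKM in 2D and between 0.0551 and 0.258 in 3D, and none of the 7 passed the test (2 had an unadjusted p below 0.05 in limma). The highest sums were in the 2D libraries of mice 3 and 4, where Kdr held most of them, while Pecam1 and Cdh5 were at most 0.164 in any library. The 8 macrophage markers summed to between 5.41 and 25.5 in 2D and between 124 and 170 in 3D, and 2 of the 8 passed, both higher in 3D. These were Cd14, at between 81.7 and 164 normalized FPKM in 3D, and Cd68. The defining markers Adgre1 and Lyz2 were at 0 in every 3D library, and Ptprc was at most 0.0779 in any library. Csf1r, the receptor for the macrophage growth factor CSF1, was between 0.486 and 1.44 in 2D and at 0.264, 5.97, 7.65 and 3.40 in 3D (mice 1, 4, 5 and 7), where it did not pass (adjusted p 0.129). Itgam and Mrc1 were at most 0.519 in any library. In 2D, Lyz2 was at 18.7 in mouse 2 and 8.04 in mouse 4, which were the libraries with the highest Fabp4, and its part in the Fabp4 values was not tested.

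The wider program was examined in 84 other genes from 5 lists, of which 80 were tested, 23 rose and 21 fell. Of all genes 21.2% rose and 20.3% fell. The median log2 fold change of the 80 was -0.05, against 0.00 over all genes. Under the block limma called 0 of the 80, of which 34 were below 0.05 before adjustment. With only mice 4 and 5, 79 were tested, 11 rose and 15 fell, against 9.89% and 7.92% of all genes in that fit.

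Regulators that promote fat cell formation moved in both directions, with 6 of 20 higher, 6 lower and a median log2 fold change of 0.19. Over all genes 21.2% were higher and 20.3% lower. Ebf1, an early factor that works with Pparg, was at 14.1 ± 5.69 normalized FPKM in 2D and 0.0492 ± 0.0565 in 3D (SD, n = 4), which is a log2 difference of -3.75 (SE 0.30, adjusted p 6.1e-05 by limma). Its relative Ebf2, a factor of brown preadipocytes, was at 2.98, 0.210, 2.33 and 2.92 in 2D and at 0 in all 3D libraries, at least 37.4-fold lower. Egr2, an early inducer of Cebpb, fell from between 1.84 and 22.2 to between 0.385 and 1.04. The largest rises on the log2(FPKM + 1) scale were those of Klf5, also an early inducer of Pparg and a factor of many epithelia, from 2.00 ± 1.16 to 27.7 ± 7.94 (SD, n = 4), and of Prdm16, a cofactor of the brown fat program, from 0.130 ± 0.0764 to 6.03 ± 2.23 (SD, n = 4). Srebf1, a regulator of lipid synthesis, rose from 20.8 ± 2.60 to 65.4 ± 22.4 (SD, n = 4).

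Within the PPAR family, Ppard, a receptor found in most tissues, was above Pparg in each of the 8 libraries. Ppard fell from 11.8 ± 1.27 normalized FPKM in 2D to 7.85 ± 0.82 in 3D (SD, n = 4), a smaller change (log2 -0.53, SE 0.12, adjusted p 0.00844 by limma) that had an adjusted p of 0.0529 without the 2D libraries of mice 3 and 4. Ppara, the receptor of fatty acid oxidation in liver, rose from at most 0.142 to between 0.235 and 0.624, and is named here after its values were seen. Ppargc1b, the close relative of Ppargc1a, rose from 0.299 ± 0.244 to 1.02 ± 0.356 (SD, n = 4, adjusted p 0.0183 by limma), with an adjusted p of 0.119 without the 2D libraries of mice 3 and 4. In 3D it was below Ppargc1a in mice 1, 5 and 7, at 0.808, 1.18 and 0.661 against 1.62, 1.76 and 2.17. In mouse 4 it was above, at 1.44 against 0.893.

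Of 15 genes that restrain fat cell formation, 6 rose and 4 fell, against 21.2% and 20.3% of all genes, with a median log2 fold change of -0.25. On the values as deposited and with upper-quartile scaling the split was the other way, with 4 that rose and 6 that fell and medians of -0.02 and 0.03, because Klf3 and Hes1 no longer passed and Dlk1 and Ddit3 did. Gata2 and Gata3, a pair of factors that repress Pparg, went in opposite directions. Gata2, at 7.82 ± 2.37 normalized FPKM in 2D, fell to 0.0819 ± 0.112 (SD, n = 4), while Gata3, also a factor of several epithelia, rose from at most 1.49 to at least 22.5. Sox9, a factor of preadipocytes, cartilage and epithelial ducts, rose from 4.42 ± 2.13 to 88.0 ± 46.8 (SD, n = 4), a log2 fold change of 4.00 (SE 0.39, adjusted p 1.7e-04 by limma). Zfp521, the antagonist of Zfp423, fell from 4.39 ± 0.838 to 0.0367 ± 0.0231 (SD, n = 4), so that both were lower in 3D. Foxo1 rose from 2.59 ± 0.694 to 18.1 ± 3.83 and the corepressor Ncor1 from 28.0 ± 3.46 to 56.4 ± 4.43 (SD, n = 4). Klf2 fell from 8.41 ± 1.20 to 0.774 ± 0.389 (SD, n = 4), and the ligand Wnt10b, between 0.580 and 4.07 in 2D, was at 0 in all 3D libraries, at least 15.6-fold lower. Klf5, Gata3 and Sox9 were highest in the 3D libraries, which also held the epithelial markers, and the part of these markers was not tested.

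Among 18 tested genes of fatty acid uptake and lipoprotein lipase handling, 6 rose and 5 fell, against 21.2% and 20.3% of all genes. Gpihbp1, which anchors the lipase on capillaries, was listed at 0 in every library. Angptl4, a secreted inhibitor of the lipase and a target of PPAR receptors, was at 46.1 ± 14.0 normalized FPKM in 2D and 0.0625 ± 0.0865 in 3D (SD, n = 4), which is a log2 difference of -5.42 (SE 0.24, adjusted p 3.1e-06 by limma), so that lipase and inhibitor were both low in 3D. The lipoprotein receptors Lrp1 and Vldlr moved in opposite directions. Lrp1 fell from 61.6 ± 5.66 to 2.71 ± 2.89, and Vldlr rose from 8.07 ± 0.624 to 64.9 ± 9.63 (SD, n = 4), with the latter at a log2 fold change of 2.85 (SE 0.12, adjusted p 1.9e-06 by limma).

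The other listed fatty acid binding proteins, Fabp3 and Fabp5, also fell, but by less than Fabp4, with 2D means 8.84 and 5.39 times the 3D means. Fabp5, the most abundant of these binding proteins on average, went from between 29.7 and 110 to between 3.24 and 26.7 normalized FPKM (adjusted p 0.0273 by limma). Its log2 difference was -0.65 in mouse 4 and -4.71 in mouse 5. The adjusted p of Fabp5 rose to between 0.0663 and 0.0711 when the 2D library of mouse 2 or 5 or the 3D library of mouse 5 or 7 was left out. Of the 4 listed enzymes that activate fatty acids, Acsl1, Acsl3 and Acsl5 rose and Acsl4 did not pass (adjusted p 0.0774), with Acsl5 at 31.0 ± 6.12 in 2D and 69.3 ± 17.2 in 3D, and Acsl3 at 10.7 ± 2.64 and 24.9 ± 7.77 (SD, n = 4). The transporter Slc27a1 rose from 3.84 ± 1.37 to 24.0 ± 4.76 (SD, n = 4, adjusted p 1.5e-04 by limma). Lipa, the acid lipase of lysosomes, fell from 26.6 ± 3.60 to 6.92 ± 1.90.

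Of 22 genes of triglyceride storage and breakdown, 4 rose and 5 fell, near the 21.2% and 20.3% of all genes, and 13 did not pass. The perilipins stood in a different order in the culture types. Plin2 lay above Plin3, a perilipin found in most cells, in each 2D library, where Plin3 was between 24.1 and 41.0 normalized FPKM. Plin3 lay above Plin2 in each 3D library, at between 42.5 and 69.8. The rise of Plin3 had an adjusted p of 0.0129 in limma, but of 0.0718 on the values as deposited and 0.0553 with upper-quartile scaling. Plin5, the perilipin of oxidative tissues, was between 0.311 and 0.555 in 3D (adjusted p 0.0261, and between 0.0597 and 0.0680 when the 2D library of mouse 2 or 4 or the 3D library of mouse 5 or 7 was left out).

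The lipases and their inhibitors also differed. Mgll, which cleaves monoglycerides, was at 33.1 ± 17.7 normalized FPKM in 2D and 0.147 ± 0.268 in 3D (SD, n = 4), which is a log2 difference of -4.63 (SE 0.57, adjusted p 5.1e-04 by limma). G0s2 and Hilpda, inhibitors of the triglyceride lipase encoded by Pnpla2, both fell. G0s2 was between 0.408 and 4.76 in 2D and at 0 in all 3D libraries, at least 7.68-fold lower (4.64-fold when the 2D library of mouse 2 is left out), and Hilpda fell from 12.1 ± 1.49 to 3.84 ± 0.291 (SD, n = 4). Pnpla2 itself rose from 11.6 ± 1.49 to 17.2 ± 3.62 (SD, n = 4, adjusted p 0.0386 by limma), but each library left out other than the 3D library of mouse 1 raised its adjusted p, to between 0.0507 and 0.0966. Gpam, the first enzyme of glyceride synthesis, fell from 14.1 ± 2.44 to 5.03 ± 0.79, and the phosphatase gene Lpin2 rose from 7.73 ± 1.54 to 11.8 ± 0.773 (SD, n = 4).

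**Figure D4:**
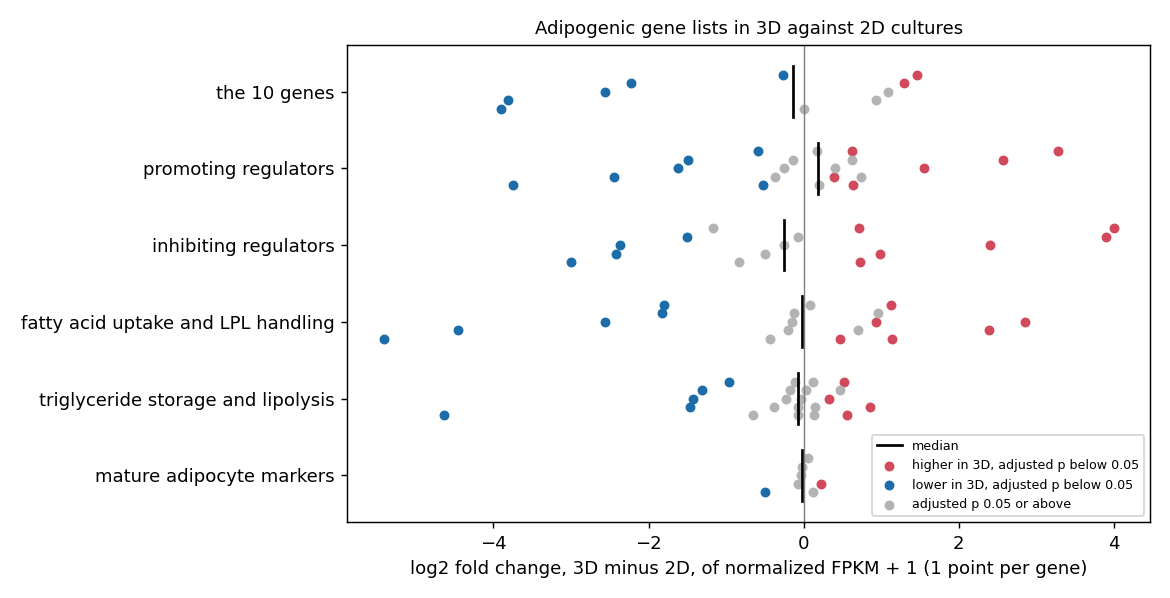
Log2 fold change between 3D and 2D of each tested gene in the 10 genes and the 5 lists, 1 point per gene, on the log2(normalized FPKM + 1) scale, in red where higher and blue where lower in 3D with an adjusted p below 0.05 and in grey otherwise. Black lines mark the medians, which lie between -0.25 and 0.19, and each list has points on both sides.

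Markers of mature adipocytes were at or near 0 in both culture types. Of the 10 markers, Adipoq, Lep and Ucp1 were listed at 0 in every library, and the remaining 7 summed to between 0.403 and 0.888 normalized FPKM in 2D and between 0.355 and 0.634 in 3D. Plin1, Cidec and Cfd held at most about 2.24 fragments in any library, and Retn at most about 3.12. Adrb3, the adrenergic receptor of fat cells, was between 0.291 and 0.521 in 2D and at 0 in all 3D libraries, at least 2.92-fold lower (adjusted p 1.7e-04 by limma). Slc2a4, the insulin-responsive glucose transporter, was at most 0.0717 in 2D and between 0.120 and 0.340 in 3D, about 1.43 to 5.98 fragments (adjusted p 0.0157 by limma). It did not pass without the 2D libraries of mice 3 and 4 (adjusted p 0.0837). Aqp7 was between 0.0255 and 0.235 in the 8 libraries (adjusted p 0.113). It passed with the 3D library of mouse 1 left out (adjusted p 0.0398), on the values as deposited (0.0404) and with upper-quartile scaling (0.0366).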

How the data were processed

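Total RNA of the 8 cultures was depleted of ribosomal RNA and made into directional libraries. The authors trimmed the paired-end reads, aligned them by TopHat and derived FPKM values by gene using Cufflinks. These FPKM values were deposited, and no read counts are among the files. Per the submitters' processing notes the build was mm10, and the annotation is not given in the sources used here. The quantile normalization that the study's methods name is not in the deposited values, whose upper quartiles range from 15.4 to 16.4 FPKM over the genes above 0.

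Genes above 0 in any library (18862) were quantile normalized and converted to log2(FPKM + 1). Linear models for 3D against 2D were fitted to all of them with limma 3.58.1 in R 4.3.3, with an intensity trend and no covariates, and the model was tested on simulated data. Labels give separate mice. Alternatives were the values as deposited, upper-quartile scaling, a pseudocount of 0.1, genes averaging at least 1 FPKM, genes under 300 nt left out, no trend, the mouse as a fixed or random block, the mice with both cultures alone, and the omission of each library. Leaving out the 2D libraries of mice 3 and 4 was chosen after seeing the data. The genes and lists were chosen with earlier results of these data known. Besides the 10 genes and the mature adipocyte markers, up to 4 genes with the largest rise and 4 with the largest fall were named per list, among genes that passed and did not overlap. Ppara, Fabp3, Acsl1, Acsl4 and Gpihbp1 were named after their values were seen. Gpat3 and Gpat4 were matched under older symbols, and Muc16 was not among the listed symbols.

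The mouse numbers come from the sample titles, so mice 4 and 5 pair the cultures. The column of the 3D library of mouse 1 carries a further number that the labels do not explain, and its group rests on its title. The correlation between their deviations from the group means was -0.05 (mouse 4) and -0.11 (mouse 5) across 12583 genes, which are not independent replicates.

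Depth was estimated from the steps of low FPKM values of 875 genes whose only GENCODE M21 transcript reaches 3000 nt, where between 69.1% and 79.8% of the values per library lay within 0.15 of a whole fragment. Fragments per gene use the median length of its coding transcripts and are approximate. The floor is 3 fragments, and a bound is the mean deposited FPKM of one culture type over the highest floor of the other. These limits cover counting error only.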

Additional observations from a re-analysis of the deposited data

Results flagged for a closer look

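Dixon's test was run on the log2(normalized FPKM + 1) values of the named genes, in 91 sets of 4 libraries. In 10 sets a library stood apart. Chance alone flags about 1 in 20 for continuous, normally distributed values. Sets with many values at 0 break that assumption, so the count cannot be compared with this rate. The gap to the nearest library, as a share of the range, is given for each flagged set. Where only 1 library is above 0, as in the flagged sets of Fabp4, Retn and Cfd, the gap is 1 by construction.

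Among the 10 adipogenic genes, the 3D library of mouse 1 was the only one of 4 above 0 for Fabp4 (gap 1, at 0.104 normalized FPKM), and the 2D library of mouse 2 was highest for Cd36 (gap 0.924, at 0.0580 against at most 0.00432). Both values lie under 3 fragments.

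The 3D library of mouse 1 was lowest for Klf5 (gap 0.897, at 16.0 against 30.9 to 33.2), highest for Gata2 (gap 0.861, at 0.248 against 0.0157 to 0.0452) and highest for Mgll (gap 0.909, at 0.549 against at most 0.0408). In 2D, the library of mouse 4 was lowest for Mgll (gap 0.931, at 6.80 against 39.3 to 44.5), that of mouse 3 lowest for Ebf2 (gap 0.849, at 0.210 against 2.33 to 2.98) and that of mouse 2 highest for Gata3 (gap 0.907, at 1.49 against 0.785 to 0.841). Retn was above 0 in 2D only in mouse 4 (gap 1, at 0.160), and Cfd only in mouse 3 (gap 1, at 0.0655).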

How the results depend on the processing

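Of the 10 adipogenic genes, 2 rose and 5 fell. With the mouse as a replicate block 0 rose and 0 fell, which leaves 1 residual degree of freedom, and 0 of the 80 list genes passed in either direction, against 23 and 21. With only mice 4 and 5, 1 rose and 3 fell, and 11 list genes rose and 15 fell (all genes 9.89% and 7.92%). Among genes averaging at least 1 FPKM, which leaves out Ppargc1a, Zfp423 and Cd36, 1 rose. Without the 2D libraries of mice 3 and 4, 4 rose and 5 fell (all genes 19.3% and 22.8%). The added rises were Cebpb and Cebpd, whose highest 2D values were in the libraries left out. Leaving out single libraries gave 2 to 3 that rose and 5 that fell, and 19 to 25 list genes that rose and 18 to 24 that fell. The other scalings, the mouse as a random effect and no trend kept the counts within 1.5 times. Of 49 fold changes of named genes, 41 had an adjusted p below 0.05. All 41 lost it under the block, where limma called 0% of all genes, and 15 lost it with only mice 4 and 5. Without the 2D libraries of mice 3 and 4, Ppard, Ppargc1b, Pnpla2 (0.0621), Plin5 (0.0595) and Slc2a4 lost it.

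A pseudocount of 0.1 moved the log2 fold change of Pparg to -4.44, Fabp4 to -6.87, Lpl to -6.37, Zfp423 to -1.52 and Ppargc1a to 3.54. The fold change of Cd36 lay between -0.0137 and 0.0242 with single libraries left out, and its sign turned without the 2D library of mouse 3 (-0.00492), 4 (-0.0029) or 5 (-0.00438), without the 3D library of mouse 4 (-0.0137) and without the 2D libraries of mice 3 and 4 (-0.0162). That of Retn turned with the mouse as a block (-0.00276) and with only mice 4 and 5 (-0.00249). Neither gene was detectable beyond about 3.12 fragments. The causes of these changes were not tested. At this depth Pparg in 3D held at most about 13.1 fragments per library, and Lpl, Fabp4 and Zfp423 in 3D and Ppargc1a in 2D held fewer. Such counts limit the precision of these low values.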
